A study of Mus musculus with 36 samples.

Results

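The Hox genes are the homeobox genes of the Hoxa, Hoxb, Hoxc and Hoxd clusters. The members described here are the rows of the deposited expression table whose gene symbol is Hox followed by a cluster letter and a paralog number, and 34 of the 18845 genes of the table met that rule. They comprised 10 Hoxa, 9 Hoxb, 7 Hoxc and 8 Hoxd genes, of which 15 belong to paralog groups 1 to 5, 8 to groups 6 to 8 and 11 to groups 9 to 13. RNA sequencing was done on HA-purified RNA of mice carrying the Ribo-tag allele, in which Cre adds an HA epitope to the ribosomal protein Rpl22, so that ribosomes and their RNA can be pulled down from the cells where Cre acted. The Cre-positive diaphragm libraries came from synapse-enriched muscle of ChAT-Cre;Ribo-tag mice, and the Cre-negative diaphragm libraries from the same preparation of Ribo-tag mice without ChAT-Cre. Spinal cord libraries came from ChAT-Cre;Ribo-tag mice. All 3 kinds of sample were collected in embryos (E15.5), after birth (P0.5 and P10) and from adults of 2 months, with 3 libraries in each of 12 groups, 36 in all. The ChAT-Cre driver acts in cells that use or have used the promoter of choline acetyltransferase, which in spinal cord are mainly motor neurons and other cholinergic neurons. Every group carries the Ribo-tag allele, and the Cre-negative libraries hold what the purification brings down without tagged ribosomes. The labels do not say which segments of the cord were taken, whether animals were pooled, or whether the 3 libraries of a group came from separate animals, so p-values measure only the spread between libraries.

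Hox genes encode transcription factors that tell cells where they lie along the head-to-tail axis. Within a cluster the genes lie in the order of their paralog numbers, and low-numbered (rostral) members begin to be expressed farther forward than high-numbered (caudal) ones. In the spinal cord, groups 4 to 8 are best known at cervical and brachial levels, group 9 at thoracic levels and groups 10 to 13 at lumbar and sacral levels, where they set the columns and pools of motor neurons together with TALE cofactors of the Pbx and Meis families. Hoxa5 and Hoxc5 are required in mice for the phrenic motor neurons that innervate the diaphragm.

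Levels are given in CPM, the reads of a gene scaled to a common total per library, and the libraries held between 63.7 M and 107 M reads, so that 3 reads, used here as the floor for a gene without reads, equalled between 0.028 and 0.0471 CPM. The difference between 2 groups was tested with limma on log2(CPM + 1) over all genes that reached 1 CPM in at least 3 libraries of the fit, and was called where the Benjamini-Hochberg adjusted p was under 0.05. Chat, the enzyme that makes acetylcholine and the gene whose promoter drives Cre, ranged from 10.4 to 73.8 CPM over the 12 spinal cord libraries. It had no read in any Cre-negative diaphragm library, and at most 0.157 CPM in a Cre-positive one. In each of the 12 groups, 1 library lay closer to a weighted sum of the other 2 than those libraries did, and between 46.4 and 85.0% of its genes fell between them, against 5.2 to 38.1% in other libraries. Whether these intermediate libraries are independent samples was not tested, and counts of Hox members below are also given without them. Genes of a cluster lie close together, and 10 members overlap another member in the RefSeq annotation: Hoxa3 to Hoxa6, Hoxb3 with Hoxb4, Hoxd3 with Hoxd4, and Hoxd10 with Hoxd11. The overlap is of whole genes from start to end, and whether their exons are shared was not examined. Reads from shared exons could not be told apart, so the levels of these members are less certain.

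**Figure D1:**
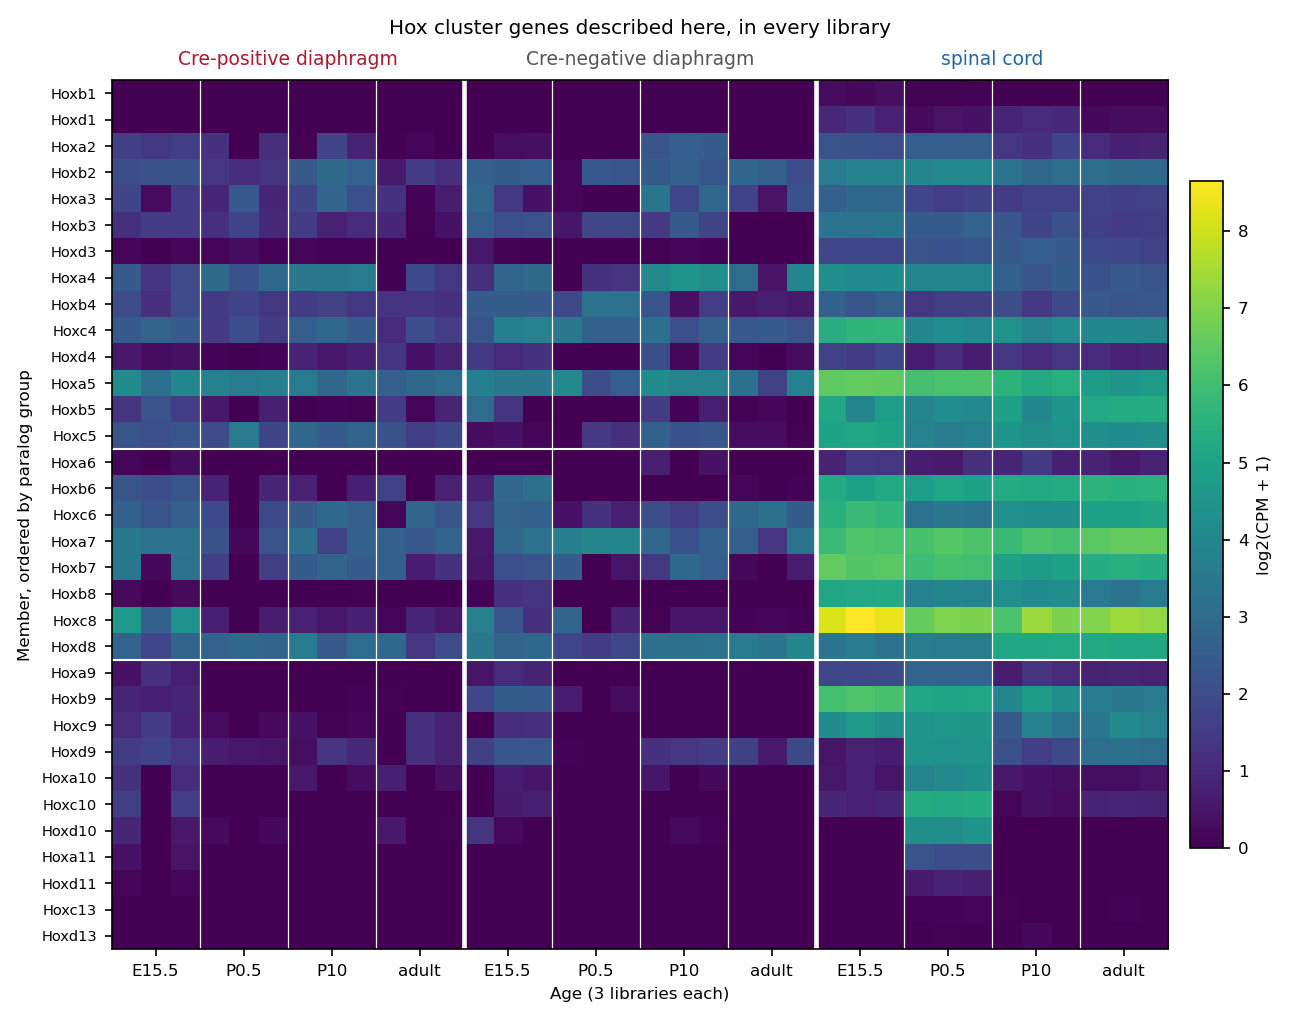
Level of the Hox cluster genes described here, as log2(CPM + 1) in colour, in each of the 36 libraries, with members in rows by paralog number and libraries in columns by group. Most rows are brighter in spinal cord than in diaphragm, and among the spinal cord libraries only those of P0.5 exceed 1 CPM for Hoxa10, Hoxc10 and Hoxd10.

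In spinal cord, all 34 members had reads in at least 1 library, and 28 had reads in all 12. The summed Hox level was 983 ± 71 CPM at E15.5, 646 ± 37 at P0.5, 490 ± 40 at P10 and 558 ± 21 CPM in adults (SD, n = 3 each). Transcript lengths were not used here, so sums and levels were compared between samples and not between genes. The middle groups 6 to 8 held 63.9% of the sum at E15.5, 49.4% at P0.5, 66.0% at P10 and 72.4% in adults. The rostral groups 1 to 5 had a lower mean sum at each later age, with 258 ± 6.2 CPM at E15.5, 164 ± 5.4 at P0.5, 132 ± 21 at P10 and 121 ± 2.6 CPM in adults. The last of these steps lies within the spread of the P10 libraries. In these purified but mixed samples, fewer cells of a type and less RNA per cell cannot be told apart.

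The caudal groups 9 to 13 followed another course, with a peak at P0.5. They summed to 95.8 ± 9.2 CPM at E15.5, 162 ± 5.8 at P0.5, 33.2 ± 9.7 at P10 and 33.5 ± 3.2 CPM in adults. Their share of all Hox CPM was 9.74 ± 0.37% at E15.5, 25.1 ± 1.5% at P0.5, 6.70 ± 1.5% at P10 and 5.99 ± 0.36% in adults (SD, n = 3 each). Of the 11 caudal members, 9 had their highest mean at P0.5, against 2 of 15 members of groups 1 to 5 and 0 of 8 members of groups 6 to 8. The exceptions were Hoxb9, highest at E15.5, and Hoxd13, which had reads in only 3 spinal cord libraries. Because the labels do not name the cord segments taken at each age, age and the span of cord taken cannot be told apart. This holds for the peak and for the other changes between ages in spinal cord.

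The members with the highest folds at that peak belong to groups 9, 10 and 11. Hoxc10, a lumbar motor neuron determinant, had 0.918, 0.722 and 0.844 CPM at E15.5, 39.1, 38.0 and 39.9 CPM at P0.5, 0.122, 0.295 and 0.196 CPM at P10, and 0.829, 0.869 and 0.797 CPM in adults. Hoxd10, which acts with it at lumbar levels, had 19.0, 18.3 and 21.9 CPM at P0.5 and no read in any of the other 9 spinal cord libraries. Hoxa10, the remaining group 10 member, had 0.483, 0.753 and 0.406 CPM at E15.5, 13.6, 15.8 and 18.8 CPM at P0.5, 0.459, 0.354 and 0.287 CPM at P10, and 0.237, 0.256 and 0.406 CPM in adults. The 3 P0.5 libraries stood far above all others for each of these genes, with no overlap. Hoxd9, the next gene of the Hoxd cluster, had 0.389, 0.722 and 0.610 CPM at E15.5, 21.2, 20.3 and 21.5 CPM at P0.5, 3.41, 2.04 and 2.71 CPM at P10, and 7.77, 8.13 and 7.39 CPM in adults. It too was highest at P0.5, but its adult libraries lay above those of P10 and E15.5.

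At P0.5 against E15.5, Hoxd9 was 36.6-fold higher in mean CPM (log2 difference 3.81, SE 0.12, limma adjusted p = 3.2e-12). Hoxc10 was 47.1-fold higher (log2 difference 4.45, SE 0.08) and Hoxa10 29.4-fold higher (log2 difference 3.46, SE 0.12). Hoxd10 was at least 421-fold higher against the floor of 3 reads per library (log2 difference 4.37, SE 0.08). Hoxa11, a group 11 gene, had 3.62, 3.26 and 3.17 CPM at P0.5 and no read in the other 9 spinal cord libraries, at least 71.4-fold higher than at E15.5. Hoxd11 showed the same pattern, with 0.543, 0.794 and 0.711 CPM at P0.5 and no read at the other ages. It did not reach the filter and was not tested. Hoxc10, Hoxa10, Hoxd10 and Hoxa11 reached 1 CPM in spinal cord at P0.5 alone, so these 4 passed the filter only through the age at which they are high and had to differ from the other ages. Their values are a description, and no p is given for them.

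**Figure D2:**
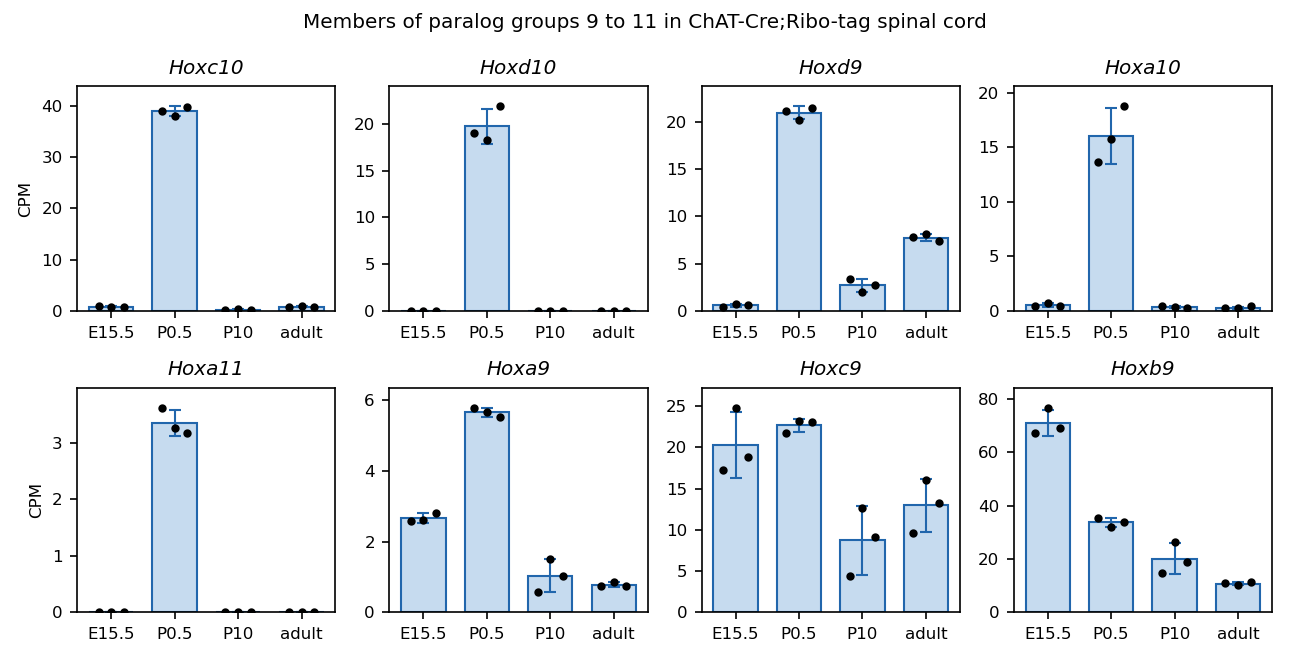
Levels in CPM of 8 caudal Hox genes in spinal cord at the 4 ages; bars are means of 3 libraries, whiskers 1 SD and points single libraries. Hoxc10, Hoxd10, Hoxa10 and Hoxa11 are near 0 outside P0.5, while the Hoxc9 libraries of E15.5 and P0.5 overlap and Hoxb9 is highest at E15.5.

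The other group 9 members moved less. Hoxa9 was 2.12-fold higher at P0.5 (5.65 ± 0.13 CPM) than at E15.5 (2.66 ± 0.13 CPM; limma adjusted p = 1.7e-05). Hoxc9, a thoracic determinant, did not pass the test, with 21.7, 23.2 and 23.1 CPM at P0.5 and 17.2, 24.8 and 18.8 CPM at E15.5. Hoxb9 went the other way, at 35.2, 32.0 and 33.9 CPM at P0.5 against 67.2, 76.6 and 69.0 CPM at E15.5 (log2 difference -1.05, SE 0.14, limma adjusted p = 2.2e-05). The 4 group 9 paralogs thus took different courses between these ages, a difference between genes that was not itself tested.

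Of the 29 members tested at P0.5 against E15.5, 10 were called higher and 14 lower, and the 4 caudal members whose filter did not rest on P0.5 alone gave 2 higher calls (Hoxd9 and Hoxa9) and 1 lower call (Hoxb9). The background was high: 72.3% of all genes were called, and 56.6% without the intermediate libraries, when 21 members were called. The count of called members is not far from that share of genes at large, so it is no result about the members. The calls of Hoxd9 and Hoxa9 kept their direction under each alternative of the analysis, including edgeR on recovered reads.

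Hoxd10, Hoxd9 and Hoxd8 are neighbours in that order on chromosome 2, with 6852 bases between the starts of Hoxd9 and Hoxd8. Hoxd10 has more than 1 start: the promoter table holds one that lies 5872 bases before that of Hoxd9, while the annotated gene begins at 74684273. Their courses in spinal cord differed: Hoxd10 and Hoxd9 peaked at P0.5, while Hoxd8 was low at both early ages and high later. Their promoters are shown for that reason, and that of Hoxa11 as a member of another cluster with reads in spinal cord at P0.5 alone. Each runs from 250 bases before to 50 bases after the start in RefSeq (GRCm38.p6), 5′ to 3′ on the gene's own strand, and capitals mark matches to a nuclear receptor half-site (AGGTCA), a Cdx motif (TTTATG) or a Pbx-Hox motif (TGATNNAT) on either strand.
Hoxd10: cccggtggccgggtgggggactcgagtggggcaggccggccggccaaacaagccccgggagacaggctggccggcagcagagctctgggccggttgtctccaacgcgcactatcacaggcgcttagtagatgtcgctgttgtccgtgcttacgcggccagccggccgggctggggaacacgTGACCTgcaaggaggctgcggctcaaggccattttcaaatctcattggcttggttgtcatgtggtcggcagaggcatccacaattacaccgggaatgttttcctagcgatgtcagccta
Hoxd9: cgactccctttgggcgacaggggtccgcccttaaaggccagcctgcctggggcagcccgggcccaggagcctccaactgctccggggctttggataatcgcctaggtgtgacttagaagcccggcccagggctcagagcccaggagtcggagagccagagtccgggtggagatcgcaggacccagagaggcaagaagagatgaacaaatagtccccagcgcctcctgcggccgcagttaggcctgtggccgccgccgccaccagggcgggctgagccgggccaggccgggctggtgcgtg
Hoxd8: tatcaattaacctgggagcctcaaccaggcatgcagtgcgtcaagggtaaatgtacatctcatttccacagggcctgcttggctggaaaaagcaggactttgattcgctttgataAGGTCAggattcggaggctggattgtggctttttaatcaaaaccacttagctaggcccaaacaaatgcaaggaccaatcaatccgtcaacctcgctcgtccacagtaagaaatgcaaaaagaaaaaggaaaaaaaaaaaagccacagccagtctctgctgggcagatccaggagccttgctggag
Hoxa11: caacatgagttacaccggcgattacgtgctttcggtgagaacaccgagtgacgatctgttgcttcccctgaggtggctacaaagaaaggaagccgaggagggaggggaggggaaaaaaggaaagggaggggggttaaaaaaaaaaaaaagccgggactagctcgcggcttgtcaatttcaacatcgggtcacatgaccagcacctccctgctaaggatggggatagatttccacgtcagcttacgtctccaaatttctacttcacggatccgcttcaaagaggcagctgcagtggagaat
The Hoxd10 promoter lies at chr2:74691641-74691940 (plus strand), that of Hoxd9 at chr2:74697513-74697812 (plus strand), that of Hoxd8 at chr2:74704365-74704664 (plus strand) and that of Hoxa11 at chr6:52245761-52246060 (minus strand). The half-site was found once in the Hoxd10 and once in the Hoxd8 promoter, and no other motif matched in these 4; no 2 matches overlapped. Over 32851 RefSeq promoters of this length, 16.3% held the half-site, 11.9% the Cdx motif and 8.85% the Pbx-Hox motif. Of the 22 Hox promoters in the table, which belong to 20 members, 7, 5 and 4 held them, in the same order. The matches are letters in a window and say nothing of binding. Promoters of Hox genes had a median of 57.7% G and C and 14.5 CpG dinucleotides, against 52.7% and 7 in all promoters. Those of Hoxd9, with 68.3%, and Hoxd10, with 62.7%, had more G and C than that of Hoxd8, with 46.7%.

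At P0.5 against E15.5, 9 of 13 tested members of groups 1 to 5 were called lower, 4 of 8 of groups 6 to 8 and 1 of 8 of groups 9 to 13. The 4 caudal members that passed the filter through P0.5 alone could not be called lower, so the groups are not compared. Hoxc6, a brachial determinant, had 8.31, 9.90 and 8.87 CPM at P0.5 against 44.5, 57.1 and 50.8 CPM at E15.5, a log2 difference of -2.37 (SE 0.09, limma adjusted p = 1.2e-11). Hoxc8, which patterns brachial motor pools, had 95.5, 126 and 122 CPM at P0.5 against 284, 401 and 337 CPM at E15.5 (log2 difference -1.56, SE 0.28, limma adjusted p = 8.0e-04). In both genes the ages did not overlap. Hoxc4, Hoxc5, Hoxb8 and Hoxa3 fell too, by 1.46, 1.27, 1.36 and 1.08 on the log2 scale. Of the 14 members called lower, 5 belong to the Hoxb, 4 to the Hoxa, 4 to the Hoxc and 1 to the Hoxd cluster. The Hoxa cluster summed to 193 ± 9.6 CPM at P0.5 and 195 ± 12 CPM at E15.5, and the Hoxb cluster to 181 ± 9.1 CPM at P0.5 and 280.4 ± 16 CPM at E15.5 (SD, n = 3 each). The Hoxc cluster summed to 214 ± 18 CPM at P0.5 against 491 ± 73 CPM at E15.5, and the Hoxd cluster to 57.5 ± 2.7 CPM at P0.5 against 15.96 ± 1.22 CPM at E15.5. Hoxa5 and Hoxb7 fell by 0.39 and 0.40 on the log2 scale. Hoxb3, which is best known in the hindbrain, fell as well, to 4.79, 4.68 and 5.52 CPM at P0.5 against 8.91, 8.59 and 9.11 CPM at E15.5.

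Between P0.5 and P10 the caudal peak was gone. Hoxc10, Hoxd10 and Hoxa10 were lower at P10 by 5.05, 4.37 and 3.63 on the log2 scale; with Hoxa11, they had passed the filter through P0.5 alone, so that this too is a description. The other 4 caudal members tested were all called lower at P10. Hoxd9 fell by 2.58 (SE 0.12, limma adjusted p = 1.7e-11) and Hoxa9 by 1.73 on the log2 scale, and Hoxb9 had 15.0, 26.3 and 19.0 CPM at P10 against 35.2, 32.0 and 33.9 CPM at P0.5 (log2 difference -0.75). Hoxc9 lost its call without the intermediate libraries (log2 difference -1.45, limma adjusted p = 0.071). Of the 8 members of the middle groups, 4 were called higher and 1 lower. Hoxd8 had 34.9, 35.4 and 37.5 CPM at P10 against 11.7, 10.8 and 11.6 CPM at P0.5, a log2 difference of 1.58 (SE 0.08, limma adjusted p = 4.0e-11), and Hoxc6 was 2.10-fold higher. Hoxb7 differed from these, at 28.7 ± 2.2 CPM at P10 against 65.5 ± 4.3 CPM at P0.5 (log2 difference -1.16, limma adjusted p = 1.1e-09). Of 29 members tested, 7 were called higher and 15 lower, where 78.7% of all genes were called. Without the intermediate libraries 18 members were called, against 66.3% of all genes.

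From P10 to adult the changes were smaller. Hoxd9 rose again, with 7.77, 8.13 and 7.39 CPM in adults against 3.41, 2.04 and 2.71 CPM at P10 (log2 difference 1.25, SE 0.12, limma adjusted p = 1.7e-07). Hoxc6 rose to 30.9 ± 1.4 CPM in adults, against 18.9 ± 0.29 CPM at P10, and Hoxa7 to 92.2 ± 5.0 CPM in adults, against 65.1 ± 8.0 CPM at P10. Hoxb8 and Hoxb9 fell, to 10.02 ± 1.0 CPM in adults, against 18.4 ± 0.78 CPM at P10, and to 10.8 ± 0.46 CPM in adults, against 20.1 ± 5.8 CPM at P10. Hoxb5, with 38.6 ± 1.8 CPM in adults and 22.5 ± 7.2 CPM at P10, was called higher (limma adjusted p = 0.045), but lost its call without the intermediate libraries and without any of 5 single libraries. Of 29 members tested, 8 were called higher and 8 lower, beside 67.9% of all genes; without the intermediate libraries 12 were called, beside 48.2%.

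In adult spinal cord, a pair of neighbouring Hoxd genes was higher than at E15.5. Hoxd8 had 37.2, 33.5 and 34.3 CPM in adults against 9.11, 10.8 and 8.77 CPM at E15.5, 3.66-fold higher (log2 difference 1.77, SE 0.08, limma adjusted p = 4.6e-12). Hoxd9 was 13.5-fold higher in adults than at E15.5 (log2 difference 2.48, limma adjusted p = 1.1e-11), and Hoxa7 and Hoxb6 were 1.35-fold and 1.29-fold higher. These 4 were the members called higher, and 17 were called lower. Hoxb9 fell by 2.60 (SE 0.14, limma adjusted p = 1.1e-09) and Hoxa4 by 1.95 on the log2 scale. Hoxa5, needed by phrenic motor neurons, stepped down at each age, with 89.2, 95.1 and 92.7 CPM at E15.5, 67.7, 71.0 and 72.1 CPM at P0.5, 47.4, 37.1 and 42.9 CPM at P10, and 26.7, 21.9 and 25.3 CPM in adults, and no 2 ages overlapped. Its adult level was 0.267 times that of E15.5 (log2 difference -1.87, limma adjusted p = 8.5e-12). Hoxc5, which acts with it there, had its lowest level at P0.5, with 31.7 ± 0.92 CPM at E15.5, 12.5 ± 1.0 at P0.5, 20.3 ± 2.2 at P10 and 18.0 ± 0.71 CPM in adults (SD, n = 3 each). The background was 84.4% of all genes called, or 74.4% without the intermediate libraries, when 20 members were called. The median of all genes tested was -0.38 on the log2 scale in this comparison, and -0.69 over the 29 members; with edgeR's scaling the median of all genes was -0.0066, and 7 members were called higher, among them these 4, and 16 lower.

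**Figure D3:**
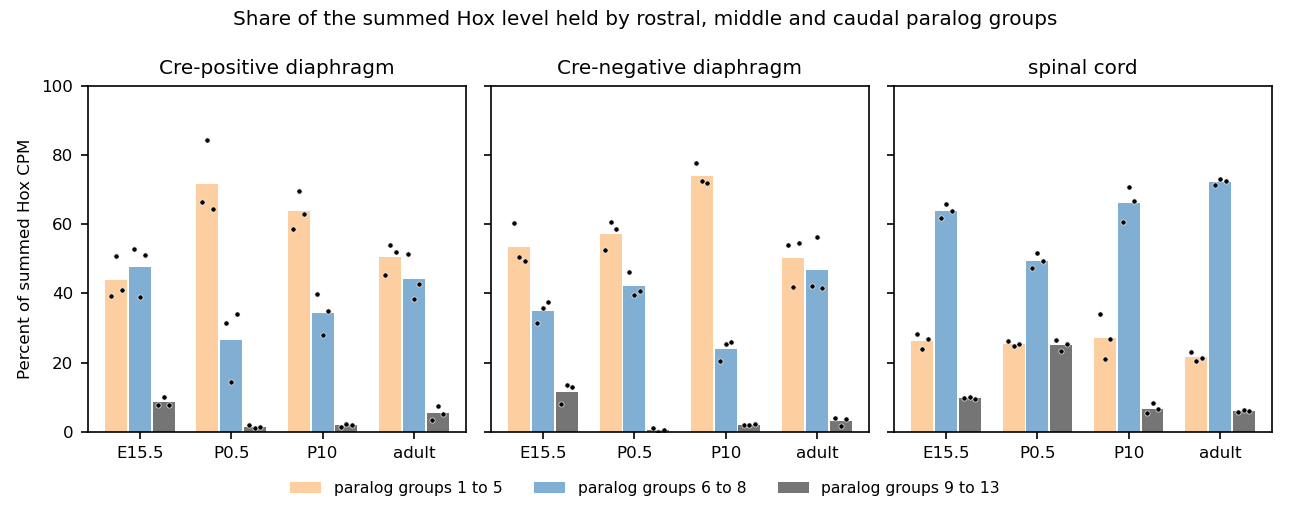
Percent of the summed Hox CPM of each library held by paralog groups 1 to 5, 6 to 8 and 9 to 13, for Cre-positive diaphragm, Cre-negative diaphragm and spinal cord at 4 ages; bars are means of 3 libraries and points single libraries. The share of groups 9 to 13 in spinal cord is 25.1% at P0.5 and at most 9.74% at the other ages, and in diaphragm groups 1 to 5 hold a larger share than in spinal cord at each age.

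Genes that act with Hox proteins were counted by list. The lists were drawn up with earlier results of these data known. Of 9 TALE cofactors, 8 were called lower in adults than at E15.5 and 0 higher, with 8 called without the intermediate libraries. Meis1 averaged 3.75 ± 0.29 CPM in adults and 53.2 ± 0.43 CPM at E15.5 (log2 difference -3.51, limma adjusted p = 9.6e-16), and Pbx3 17.7 ± 0.92 CPM in adults and 90.0 ± 2.0 CPM at E15.5. At P10 against P0.5, 8 of 9 were lower and 1 higher, and 9 were called without the intermediate libraries. At P0.5 against E15.5, 4 were higher and 3 lower, and 4 were called without them. Of 16 motor column and pool factors tested, 12 were lower and 4 higher in adults than at E15.5, and 15 were called without the intermediate libraries. The shares called are near those of all genes, 84.4% for adult against E15.5 and 78.7% for P10 against P0.5, and do not set the lists apart. Among the lower ones, Foxp1, the coactivator of Hox proteins in limb motor neurons, averaged 6.58 ± 0.13 CPM in adults against 51.9 ± 7.7 CPM at E15.5, and Etv4, a motor pool factor, 1.26 ± 0.24 CPM in adults against 26.7 ± 0.31 CPM at E15.5.

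Regulators of the clusters were counted in the same way. Of 14 retinoid, Cdx and Gdf11 pathway genes tested, 10 were lower and 3 higher in adults than at E15.5, beside 84.4% of all genes called, and 13 were called without the intermediate libraries. Aldh1a2, which makes retinoic acid in limb-level motor neurons, averaged 6.16 ± 0.60 CPM in adults and 443 ± 52 CPM at E15.5 (log2 difference -5.95, limma adjusted p = 1.5e-14). At P0.5 against E15.5 it was lower too, at 173 ± 5.3 CPM at P0.5 and 443 ± 52 CPM at E15.5, while Crabp1, a retinoic acid binding protein, was higher, at 646 ± 31 CPM at P0.5 and 226 ± 18 CPM at E15.5. Of 20 Polycomb group genes tested, which keep Hox genes silent, 13 were lower and 3 higher at P0.5 than at E15.5, and 12 were called without the intermediate libraries. Ezh2, the enzyme that sets H3K27 methylation, averaged 1.61 ± 0.30 CPM at P0.5 against 5.48 ± 0.04 CPM at E15.5, and 4.93 ± 0.63 CPM at P10 against 1.61 ± 0.30 CPM at P0.5. Of 11 trithorax group genes and H3K27 demethylases, 9 were lower and 0 higher at P0.5 than at E15.5, and 7 were called without the intermediate libraries, among the 9 the demethylase Kdm6b (5.85 ± 0.34 CPM at P0.5 and 23.2 ± 2.7 CPM at E15.5). Beside a background of 72.3% of all genes, these counts do not set the lists apart. Of the 9 tested homeobox genes of other ventral and dorsal cord neurons, 7 were higher and 0 lower at P0.5 than at E15.5, and 6 were called without the intermediate libraries. The share called is near that of all genes here too, 72.3%, or 56.6% without the intermediate libraries, and does not set this list apart.

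Markers of other cells moved with age in spinal cord, and their part in the Hox changes was not tested. The 9 motor neuron markers all had reads and summed to 2487 to 2692 CPM at E15.5, 1736 to 1953 at P0.5, 2792 to 2969.9 at P10 and 2864 to 2970.3 CPM in adults, so they were lowest at the age of the caudal peak. The 10 spinal interneuron markers summed to 71.4 to 84.8 CPM at E15.5, 104 to 107 at P0.5, 69.0 to 81.0 at P10 and 43.7 to 59.1 CPM in adults, highest at that age. The 8 oligodendrocyte lineage markers summed to 106 to 138 CPM at E15.5, 833 to 901 at P0.5, 13764 to 18262 at P10 and 2192 to 3693 CPM in adults. The 10 fibroblast and connective tissue markers summed to 365 to 541 CPM at E15.5, 188 to 234 at P0.5, 74.8 to 228 at P10 and 34.7 to 41.2 CPM in adults. The 10 skeletal muscle markers summed to 798 to 1618 CPM at E15.5, 1042 to 4772 at P0.5, 45.9 to 374 at P10 and 7.59 to 11.3 CPM in adults.

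In diaphragm the summed Hox level was lower than in spinal cord, and groups 1 to 5 held more of it. The summed level was 92.1 ± 28.0, 47.5 ± 1.1, 71.3 ± 2.8 and 36.3 ± 2.2 CPM in Cre-positive diaphragm at E15.5, P0.5, P10 and in adults, and 88.0 ± 5.9, 49.2 ± 5.6, 89.8 ± 7.2 and 52.4 ± 18.6 CPM in Cre-negative diaphragm. Groups 1 to 5 held between 43.8 and 71.8% of it in Cre-positive and between 50.2 and 74.1% in Cre-negative diaphragm, as group means. Hoxb1, Hoxc13, Hoxd1 and Hoxd13 had no read in any of the 24 diaphragm libraries, and Hoxa11 and Hoxd11 none in the 12 Cre-negative ones. Reads in all 24 were found for 6 members. The 10 skeletal muscle markers summed to 26935 to 32391 CPM in Cre-positive and 30853 to 37326 CPM in Cre-negative diaphragm at E15.5, and to at least 67973 CPM in each library of the later ages, while the 9 motor neuron markers summed to at most 72.2 CPM in any. Hoxa5, Hoxa7, Hoxb2, Hoxc4 and Hoxd8 averaged above 1 CPM in all 8 diaphragm groups. Hoxa5 averaged 13.6 ± 4.9 CPM at E15.5, 12.04 ± 1.0 at P0.5, 8.63 ± 2.3 at P10 and 6.43 ± 1.2 CPM in adult Cre-positive diaphragm, and 10.6 ± 1.6, 7.98 ± 6.8, 14.6 ± 2.0 and 7.65 ± 5.3 CPM at the same ages in Cre-negative diaphragm (SD, n = 3 each).

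The Cre-positive and Cre-negative diaphragms differed in few members, with 3, 6, 1 and 3 of 21 called at E15.5, P0.5, P10 and in adults. Of all genes 11%, 27.7%, 1.45% and 12% were called at these ages. The counts are near those shares, so they are no result about the members. With 2 libraries a group, after leaving out the intermediate ones, no member was called at any age, but under 1% of all genes were, so that this loss says little. The difference of Hoxc5 at E15.5 was 1.97 on the log2 scale without them and 1.93 with them. An intermediate library is chosen as lying near a weighted sum of the other 2, so leaving it out can move a difference only little. Kept signs and sizes are therefore no support for the calls. At E15.5, 3 of 21 members tested were called. Hoxc5 had 3.73, 3.33 and 3.88 CPM in Cre-positive against 0.220, 0.336 and 0.1001 CPM in Cre-negative diaphragm, 16.7-fold higher (log2 difference 1.93, SE 0.40, limma adjusted p = 0.0041). Hoxa2 was higher too, with 2.14, 1.65 and 2.05 CPM in Cre-positive against 0, 0.237 and 0.275 CPM in Cre-negative diaphragm (limma adjusted p = 0.016). Hoxb9 was lower, with 0.866, 0.640 and 0.855 CPM in Cre-positive against 2.56, 4.81 and 4.77 CPM in Cre-negative diaphragm (log2 difference -1.46). It would not have passed the filter without the Cre-negative libraries of this age, where it is high, so its values are a description without a p. The groups did not overlap for any of these 3 members. Hoxa2 lost its call without Cre-positive replicate 1 or 3, and edgeR called Hoxc5 alone. Over all genes 11% were called, and 0.065% without the intermediate libraries, where 0 of the 21 members were, with 3 at an unadjusted p under 0.05. Cartilage markers moved with the groups, with 7 of 8 called higher, 1 of them without the intermediate libraries, and sums of 307 to 3672.5 CPM in Cre-positive against 20.4 to 195 CPM in Cre-negative diaphragm; their part in the Hox differences was not tested.

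At P0.5, 6 of 21 members were called, 3 in each direction. Hoxc5 was again higher, with 2.95, 11.1 and 2.51 CPM in Cre-positive against 0, 1.67 and 1.23 CPM in Cre-negative diaphragm (log2 difference 1.60, SE 0.40, limma adjusted p = 0.0057). Hoxd8 was higher, with 5.57, 6.62 and 6.04 CPM in Cre-positive against 2.55, 1.88 and 2.58 CPM in Cre-negative diaphragm (limma adjusted p = 0.038), as was Hoxa4 (5.66 ± 1.9 CPM in Cre-positive and 0.955 ± 0.83 CPM in Cre-negative diaphragm, limma adjusted p = 0.047). Hoxa7 was lower, with 3.39, 0.140 and 3.64 CPM in Cre-positive against 11.98, 14.3 and 14.99 CPM in Cre-negative diaphragm (log2 difference -2.37, SE 0.61, limma adjusted p = 0.0071). Hoxc4 and Hoxb4 fell by 1.26 and 1.24 on the log2 scale. The calls of Hoxa4, Hoxd8, Hoxc4 and Hoxb4 were each lost when any of 3 to 5 single libraries was left out. With 27.7% of all genes called, or 0.758% without the intermediate libraries, the members' count was at the background. Under edgeR's scaling 8 members were called higher and 1 lower, so the split of directions differed between the tests. Without the intermediate libraries 0 of 21 were called, with 2 at an unadjusted p under 0.05. Hepatocyte markers summed to 1397 to 12143 CPM in Cre-positive against 62.2 to 153 CPM in Cre-negative diaphragm at this age, with 7 of 7 called higher and 4 called without the intermediate libraries. At the same age 6 of 8 cartilage markers were higher, and 6 of 10 fibroblast and 7 of 10 skeletal muscle markers were lower. Without the intermediate libraries 3, 0 and 1 of these were called. Their part was not tested.

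At P10 only Hoxa2 was called, with 0.0305, 2.53 and 0.800 CPM in Cre-positive against 3.89, 4.99 and 4.75 CPM in Cre-negative diaphragm (log2 difference -1.56, SE 0.35, limma adjusted p = 0.023). That direction is opposite to the E15.5 one, and leaving out any of 5 libraries ended the call. The background was 1.45% of all genes, and 0% without the intermediate libraries, where 0 members were called and 1 had an unadjusted p under 0.05, and edgeR called 0 members. In adults, Hoxc5 was higher once more, with 3.42, 1.94 and 2.66 CPM in Cre-positive against 0.202, 0.183 and 0.0442 CPM in Cre-negative diaphragm (18.7-fold, log2 difference 1.67, SE 0.40, limma adjusted p = 0.0089). Hoxd8 was lower, with 6.57, 1.55 and 2.98 CPM in Cre-positive against 10.7, 9.13 and 14.7 CPM in Cre-negative diaphragm (log2 difference -1.53, limma adjusted p = 0.011), and Hoxb2 was lower by 1.40 on the log2 scale (limma adjusted p = 0.038). Leaving out Cre-positive replicate 2 ended the call of Hoxd8 (log2 difference -1.17), and leaving out any of 4 libraries ended that of Hoxb2. Of all genes 12% were called, and 0.123% without the intermediate libraries, where 0 members were, with 2 at an unadjusted p under 0.05, and 6 of 7 hepatocyte markers were higher in Cre-positive diaphragm, of which 0 were called without the intermediate libraries; their part was not tested. Hoxc5 was thus called higher in Cre-positive diaphragm at E15.5, P0.5 and adult age, and edgeR called it at the same 3 ages (adjusted p = 0.030, 0.049 and 0.012). In adults edgeR called 2 members, both higher. At P10 it had 6.53, 4.68 and 5.68 CPM in Cre-positive and 5.46, 3.55 and 3.91 CPM in Cre-negative diaphragm, which overlapped and did not pass the test.

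**Figure D4:**
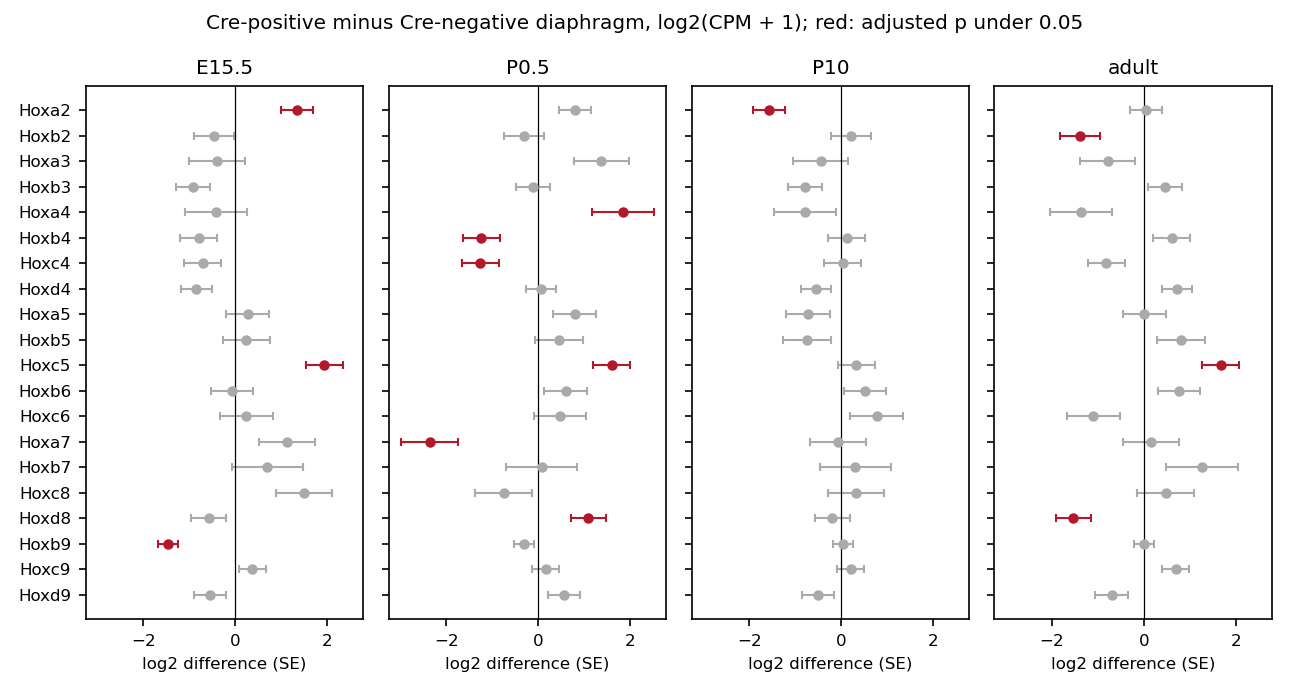
Difference on the log2(CPM + 1) scale, Cre-positive minus Cre-negative diaphragm, for the tested Hox genes described here, at E15.5, P0.5, P10 and in adults; whiskers are 1 SE and red marks an adjusted p under 0.05 (limma). The only member in red at more than 2 ages is Hoxc5, to the right of 0 at E15.5, P0.5 and in adults.

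Cre-positive diaphragm held less Hox RNA than spinal cord, and the 8 members of groups 6 to 8 were called lower at each age. Without the intermediate libraries 7, 7, 6 and 8 of them were called at E15.5, P0.5, P10 and in adults, and with edgeR 7, 6, 6 and 7. Of these 8, Hoxa6 and Hoxb8 did not pass the filter among diaphragm libraries, so they were tested here through their spinal cord levels. Hoxa9, Hoxa10, Hoxa11, Hoxc10, Hoxd3 and Hoxd10 entered in the same way, and Hoxb9 had at most 0.866 CPM in Cre-positive diaphragm. For these members a lower call where spinal cord is high follows from the filter, so the counts of lower members are a description. At E15.5, 23 of 29 members tested were lower and 3 higher in Cre-positive diaphragm. Hoxb8 had 0.157, 0.021 and 0.155 CPM in Cre-positive diaphragm against 33.6, 36.0 and 38.0 CPM in spinal cord (log2 difference -5.05, SE 0.11). Hoxb9 had 0.866, 0.640 and 0.855 CPM in Cre-positive diaphragm against 67.2, 76.6 and 69.0 CPM in spinal cord (log2 difference -5.33, SE 0.14). Both are given as a description, without a p, because they passed the filter through spinal cord alone. The higher members were Hoxa11 and Hoxd10, which had no read in E15.5 spinal cord and at most 0.378 and 0.922 CPM in Cre-positive diaphragm, and Hoxd9. Hoxd9 had 1.85, 2.34 and 1.60 CPM in Cre-positive diaphragm against 0.389, 0.722 and 0.610 CPM in spinal cord (log2 difference 0.90, limma adjusted p = 0.0031), and lost its call without the intermediate libraries (limma adjusted p = 0.052), as did the other two. Over all genes 73.6% were called, and 57% without the intermediate libraries, where 22 members were.

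At P0.5 all 26 called members, of 29 tested, were lower in Cre-positive diaphragm. Hoxc8 had 0.649, 0 and 0.586 CPM in Cre-positive diaphragm against 95.5, 126 and 122 CPM in spinal cord (log2 difference -6.38, SE 0.39, limma adjusted p = 7.4e-12). The caudal genes of the P0.5 spinal cord peak had few or no reads in diaphragm. Hoxc10, Hoxa10 and Hoxa11, given as a description, had no read in the 3 Cre-positive P0.5 libraries. Counted from the floor of 3 reads, they were at least 1222-fold, 504-fold and 105-fold lower than in spinal cord. Hoxd10 had 0.152, 0 and 0.131 CPM in Cre-positive diaphragm against 19.0, 18.3 and 21.9 CPM in spinal cord. Of all genes, 15.4 to 33.6% had no read in a Cre-positive diaphragm library, against 8.30 to 12.9% in a spinal cord library. Whether genes without reads were absent or missed was not tested, so these folds are uncertain. The background was 75.3% of all genes, or 60.3% without the intermediate libraries, where 24 members were called. The median of all genes tested was -0.80 on the log2 scale in this comparison, and -2.45 over the 29 members. With edgeR's scaling the median of all genes was 0.0126, and 20 members were called lower and 1 higher.

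At P10, 19 members were lower and 1 higher. Hoxa4 was the higher one, with 9.75, 10.3 and 10.5 CPM in Cre-positive diaphragm against 5.43, 3.91 and 4.90 CPM in spinal cord (log2 difference 0.97, SE 0.35, limma adjusted p = 0.017). It lost the call without the intermediate libraries, and Cre-negative diaphragm had still more, 15.7, 21.1 and 18.2 CPM. Of all genes 73% were called, and 56.4% without the intermediate libraries, where 15 members were. In adults 24 members were lower and 0 higher, beside 74.8% of all genes, and 20 were lower without the intermediate libraries, beside 60.8%. EdgeR called 20 members lower and 1 higher at this age. Hoxc8 showed the largest difference again, with 0.117, 0.869 and 0.549 CPM in Cre-positive diaphragm against 128, 165 and 152 CPM in spinal cord (log2 difference -6.65, SE 0.39, limma adjusted p = 3.5e-12). The median of all genes tested was -0.72 in this comparison, and -1.85 over the 29 members. Of the 9 TALE cofactors, 6 to 8 were called lower in Cre-positive diaphragm at each age and 0 higher, or 5 to 7 called without the intermediate libraries. Between 73 and 75.3% of all genes were called at these ages, with a median below 0 at each, so the counts do not set this list apart. At P0.5 Pbx3 averaged 1.64 ± 0.80 CPM in Cre-positive diaphragm and 79.7 ± 3.6 CPM in spinal cord. All 9 motor neuron markers were also lower at each age, so the share of neurons and the Hox level cannot be told apart here.

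**Figure D5:**
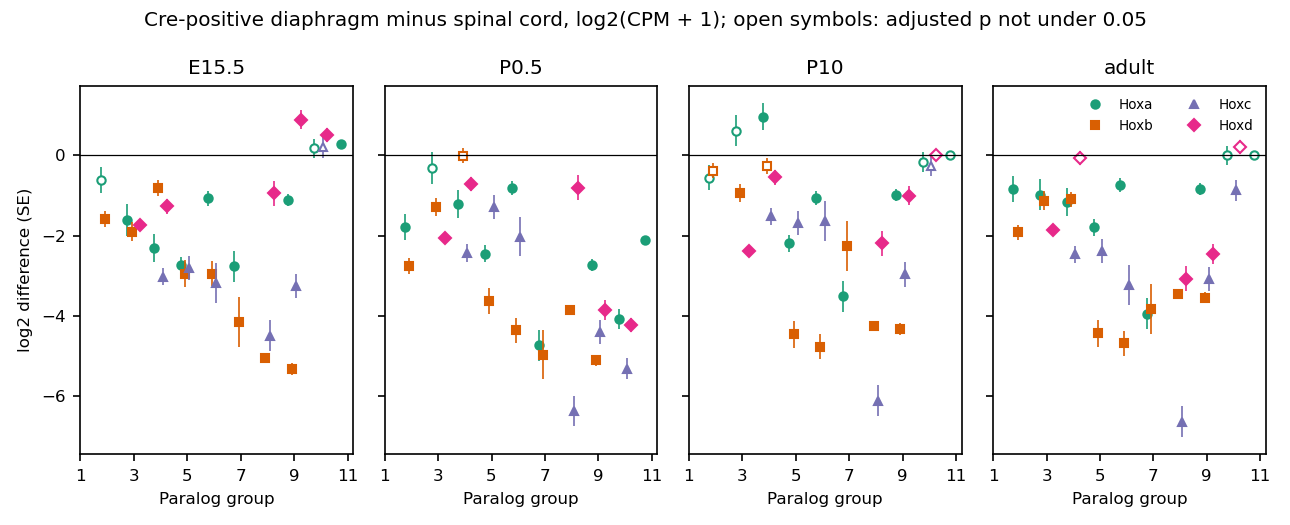
Difference on the log2(CPM + 1) scale, Cre-positive diaphragm minus spinal cord, against paralog group for the tested Hox genes described here, at 4 ages; colours and shapes mark clusters, whiskers are 1 SE and open symbols are members whose adjusted p was not under 0.05. Hoxc8 is the lowest point at P0.5, P10 and in adults, at -6.38, -6.12 and -6.65, and the group 10 genes lie below -4 at P0.5 alone.

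Over both diaphragm genotypes, 11 of 21 members tested were lower in adults than at E15.5 and 0 higher. Hoxc8 averaged 0.290 ± 0.34 CPM in adults and 11.3 ± 9.4 CPM at E15.5 (log2 difference -2.83, SE 0.44, limma adjusted p = 9.2e-06), Hoxb6 0.534 ± 0.91 CPM in adults and 4.29 ± 2.5 CPM at E15.5, and Hoxb9 0.0128 ± 0.014 CPM in adults and 2.42 ± 2.0 CPM at E15.5 (SD, n = 6 each). Of all genes 60.6% were called. Without the intermediate libraries 35.4% were, and 4 members, namely Hoxb3, Hoxb6, Hoxb9 and Hoxc8. The counts of members are not above these shares, so they are no result about the members. The median of all genes tested was -0.53 on the log2 scale in this comparison, and -0.79 over the 21 members. Hoxb9 would not have passed the filter without E15.5 Cre-negative diaphragm, so its lower adult level is a description. Markers of other cells moved between these ages too. Lower in adults were 8 of 10 fibroblast, 8 of 8 cartilage, 6 of 7 hepatocyte, 6 of 6 pancreatic acinar and 5 of 5 erythroid markers, of which 5, 6, 6, 6 and 5 were called without the intermediate libraries, and 8 of 10 skeletal muscle markers were higher. The fibroblast markers summed to 306 to 434 CPM in adult against 1714 to 1744 CPM in E15.5 Cre-positive diaphragm, and to 515 to 571 CPM in adult against 3145 to 3256 CPM in E15.5 Cre-negative diaphragm. The part of these markers was not tested. The change with age differed between Cre-positive diaphragm and spinal cord for 13 of 29 members, beside 58% of all genes (7 positive and 6 negative, against 2 and 9 with edgeR), and for 3 members beside 33% without the intermediate libraries. Hoxd9 was 1 of those 3. It averaged 0.685 ± 0.64 CPM in adult and 1.93 ± 0.38 CPM in E15.5 Cre-positive diaphragm, and 7.76 ± 0.37 CPM in adult and 0.574 ± 0.17 CPM in E15.5 spinal cord, an interaction of -3.35 on the log2 scale (SE 0.35, limma adjusted p = 1.2e-07).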

How the data were processed

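RNA was purified with the HA tag from synapse-enriched diaphragm and from spinal cord, and libraries were read by RNA sequencing, per the labels. The submitters' processing notes name Bowtie2 2.2.5, RSEM 1.2.12 and the build mm10. The authors deposited CPM values in a single table, and each value was a whole number of reads within 0.1 read once divided by what 1 read is worth in its library; for 100% of values per library this held. In P0.5 Cre-positive diaphragm replicate 3 the depth is an estimate. Limma 3.58.1 (R 4.3.3) tested log2(CPM + 1), with 1 as the pseudocount, on genes of at least 1 CPM in 3 libraries, in 3 fits: spinal cord, diaphragm, and Cre-positive diaphragm with spinal cord. Alternatives were a pseudocount of 0.1, no filter, median-ratio (RLE) size factors, edgeR 4.0.16 on the recovered reads, a replicate block, and omission of single or intermediate libraries. An intermediate library is the one of its group closest to a weighted sum of the other 2. The scripts were tested on simulated data. Per comparison, up to 6 called members per direction with a mean of at least 1 CPM were taken by size of difference. Some further members are described by their values too, and the rest are given by counts. The members and gene lists were chosen with earlier results of these data known. The replicate numbers do not pair the samples: in 0 of 66 pairs of groups did every same-numbered pair of libraries deviate together (r over 0.1). The files name 34 of 39 such RefSeq symbols, and the other 5 were not analysed here. Of the 34 members, 1 is included in counts and sums but is not reported here by its values.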

Additional observations from a re-analysis of the deposited data

Results flagged for a closer look

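The change from E15.5 to adult differed between Cre-positive diaphragm and spinal cord for 13 members in an interaction test (limma on log2(CPM + 1)), as diaphragm change minus spinal cord change. Of these, 12 are described. The value was positive for Hoxb9 (1.78), Hoxb8 (1.59), Hoxd4 (1.204), Hoxa4 (1.16), Hoxa5 (0.95) and Hoxb3 (0.78), and negative for Hoxd9 (-3.35), Hoxc8 (-2.16), Hoxd8 (-2.14), Hoxb6 (-1.73), Hoxb5 (-1.49) and Hoxc10 (-1.07). Hoxb8, Hoxb9 and Hoxd9 were the 3 called without the intermediate libraries, at 1.63, 1.86 and -3.57, but the signs of Hoxb8 and Hoxb9 turn with edgeR (-4.741 and -3.163), and that of Hoxb9 with a pseudocount of 0.1 (-0.306). Hoxb8 and Hoxb9 had at most 0.866 CPM in any Cre-positive diaphragm library, where log2(CPM + 1) understates a change. The difference between Cre-positive and Cre-negative diaphragm changed between neighbouring ages for 3 members: Hoxa7 (-3.49) and Hoxb9 (1.15) at P0.5 against E15.5, and Hoxa2 (-2.37) at P10 against P0.5. None of these 3 was called without the intermediate libraries, and 0 members were called at adult age against P10, where 8 had an unadjusted p under 0.05 and edgeR called 1. Hoxb9 would not have passed the filter for diaphragm without E15.5 Cre-negative diaphragm, so its value of 1.15 is a description.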

How the results depend on the processing

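Single members kept direction and call in 92 of 102 results with a pseudocount of 0.1, 100 with no filter, 97 with RLE size factors, 87 with edgeR, 101 with the replicate block and 74 without the intermediate libraries; leaving out 1 library, 668 of 714 did. The rest lost the call, except for reversals in the interaction of age and tissue: Hoxb9 was -0.306 with a pseudocount of 0.1 and -3.163 with edgeR, and edgeR gave -4.741 for Hoxb8; the cause was not tested. Counts of called members in spinal cord, and between diaphragm and spinal cord at each age, stayed within 1.5 times under the alternatives run. Between Cre-positive and Cre-negative diaphragm at E15.5 the count of 3 was 5 with no filter, 1 with edgeR, 0 without the intermediate libraries and 2 to 5 leaving out 1 library. At P0.5 the count of 6 was 0 without the intermediate libraries and 2 to 6 leaving out 1. At P10 the count of 1 was 0 with a pseudocount of 0.1, RLE, edgeR or no intermediate libraries, and 0 to 1 leaving out 1. In adults the count of 3 was 0 without the intermediate libraries and 2 to 4 leaving out 1. For diaphragm, adult against E15.5, the count of 11 was 7 with RLE, 4 without the intermediate libraries and 9 to 12 leaving out 1. For the interaction, 13 was 8 with a pseudocount of 0.1, 3 without the intermediate libraries and 10 to 14 leaving out 1. The replicate block moved no count by over 1.5 times, giving 25 and 23 at P0.5 and P10 against the age before in spinal cord, where 24 and 22 stood. Scaling moved the median of all genes: edgeR's size factors took it to 0.0126 for diaphragm against spinal cord at P0.5, where it was -0.796, and changes are best read relative to it. At 63.7 M to 107 M reads, depth itself limited only members near the floor of 3 reads, but diaphragm libraries held more genes without reads than spinal cord libraries.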
